A study of Mus musculus with 12 samples.

Results

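The renin-angiotensin system genes examined here are the 7 mouse genes Ren1, Agt, Ace, Enpep, Agtr1a, Agtr1b and Agtr2, out of 24062 gene symbols counted by RNA-seq in each of 12 whole kidneys at postnatal day 3 (P3). They were taken as the rows carrying exactly these symbols. LIN28B Wt1 mice carry a doxycycline-inducible human LIN28B transgene at the Col1a locus (TRE-LIN28B) and an rtTA activator behind a lox-STOP-lox cassette that Wt1-Cre opens, so that the transgene can be switched on in the Wt1 lineage, and a single 1-day pulse of doxycycline was given late in gestation. These kidneys are labelled LIN28OE on C57BL/6, and their littermate controls are labelled WT on C57BL/6. The let-7 KO mice lack let-7a1, let-7d and let-7f1 constitutively, in every tissue, and are labelled let7KO on a mixed background of CD1 and C57BL/6, as are their WT littermates. Each group holds 3 kidneys, 2 from litter 1 and 1 from litter 2. The controls of the 2 models therefore differ in strain, and doxycycline exposure of the C57BL/6 controls is not given in the sources used here.

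Angiotensinogen, encoded by Agt, is the only known substrate of renin, which cuts angiotensin I from its end. Angiotensin-converting enzyme (Ace) turns angiotensin I into angiotensin II, and glutamyl aminopeptidase (Enpep) removes the first residue of angiotensin II to give angiotensin III. Mice have a pair of type 1 receptors, Agtr1a and Agtr1b, which raise blood pressure and sodium retention, and a type 2 receptor, Agtr2, whose expression is high in fetal mesenchyme and declines after birth. In the developing kidney renin is made along the growing arterioles, and Agt, Ace and Enpep in the maturing proximal tubule. Loss of renin, Agt or Ace is known to disturb the vessels and the papilla.

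Counts per kidney summed to between 39926235 and 61872736, so that 3 counts, taken as the floor, stand for 0.0485 to 0.0751 CPM (counts scaled to the library total). The labels were checked with the let-7 target Hmga2, which was at 156 to 207 CPM in LIN28B Wt1 and 12.4 to 16.4 CPM in the controls, and at 12.3 to 31.6 CPM in let-7 KO and 7.72 to 10.5 CPM in WT littermates. The rows of the deleted Mirlet7a-1, Mirlet7d and Mirlet7f-1 held no count in any let-7 KO kidney. In WT littermate replicates 1 to 3 Mirlet7d held 0, 19 and 35 counts, Mirlet7a-1 0, 8 and 0, and Mirlet7f-1 0, 0 and 2. These rows therefore do not tell WT replicate 1 from the KO kidneys. The kidney label was checked with 12 proximal tubule and 8 podocyte markers, all of which had counts in every group. Summed adrenal cortex markers stayed between 2.54 and 5.65 CPM, with Cyp11b2 at 0 in every kidney, whereas fat markers reached 63 and 85.4 CPM in C57BL/6 control replicates 1 and 2 and at most 15.5 CPM in any other kidney. Y-linked genes summed to 141 to 216 CPM in 1 of 3 kidneys in each C57BL/6 group and in 2 of 3 in each mixed strain group, and to at most 0.161 CPM in the others. The study calls the kidneys of a group biological replicates but the labels name no animal, and the p-values measure the spread between these kidneys.

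In LIN28B Wt1 kidneys the substrate gene Agt, the peptidase genes Ace and Enpep and the type 1 receptor gene Agtr1a were lower than in littermate controls, at between 35.8% and 56.7% of the control level. Of the 6 members that could be tested, Ace fell at an adjusted p below 0.05 (edgeR's quasi-likelihood test, adjusted over all genes), where 1.23% of the 15793 genes tested were called. At an unadjusted p below 0.01, the threshold the study used, 4 of 6 members were called, all 4 of them lower, where 7.33% of all genes were called in either direction and 4.08% were called lower. For 5 of 6 members the LIN28B Wt1 and control kidneys did not overlap, and all 5 were lower, against 23.8% of all genes not overlapping in either direction. Without LIN28B Wt1 replicate 3, the kidney of litter 2, Agt, Ace, Enpep and Agtr1a all had an adjusted p below 0.05, as had 2074 of all genes in place of 194. Each of the other 5 fits without 1 kidney, and the fit with a replicate block for litter, left 0 members at an adjusted p below 0.05. Agtr2 was the member that did not follow this pattern. In whole-kidney RNA, fewer cells of a type and less RNA per cell cannot be told apart.

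In let-7 KO kidneys Agtr1a was the member with the clearest difference, at 50.1% of the WT level. None of the 6 members tested had an adjusted p below 0.05, where 0.0194% of the 15500 genes tested were called. Agtr1a alone had an unadjusted p below 0.01, where 2.73% of all genes were called and 1.63% were called lower. It was also the only member whose KO and WT kidneys did not overlap, against 16.7% of all genes. DESeq2 gave 2 members, Agtr1a and Enpep, an unadjusted p below 0.01. It gave an adjusted p, none below 0.05, for Agt, Ace and Enpep, and none at all for the 3 receptor genes.

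**Figure D1:**
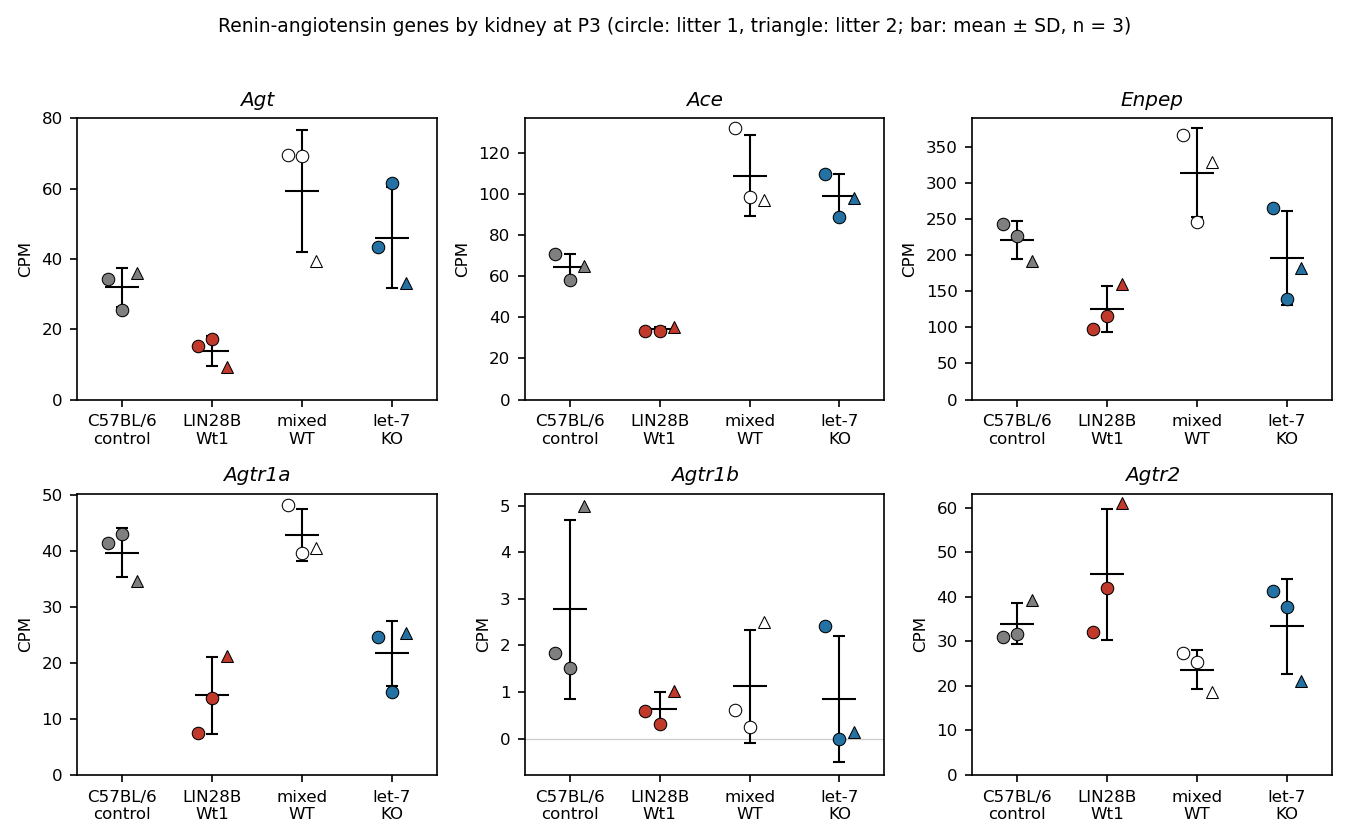
Level of 6 members in each kidney, in CPM scaled by TMM, with circles for litter 1, triangles for litter 2 and bars for the mean and SD of the 3 kidneys in each group. Agt, Ace, Enpep and Agtr1a lie lower in all 3 LIN28B Wt1 kidneys than in all 3 controls, Agtr1a also lies lower in all 3 let-7 KO kidneys than in all 3 WT littermates, and Agtr1b spans from 0 to 2.41 CPM within the let-7 KO group.

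Ren1 encodes renin, the rate-limiting protease of the system, and spans 133350510 to 133360325 of chromosome 1 (plus strand, GRCm38). Its row held 1 count in all, in C57BL/6 control replicate 1, and 0 in the other 11 kidneys. Ren2, the near-identical second renin gene that some mouse strains carry beside Ren1, held 6 counts in all and 0 in 9 kidneys. The genes on either side of Ren1 were counted in every kidney, with 11 to 144 counts for Kiss1, the nearest on one side, 705 to 1583 for Golt1a beyond it and 110 to 749 for Etnk2 on the other side. Genes that mark or regulate renin cells were also present, since Akr1b7, an aldo-keto reductase of the renin lineage, held 1196 to 3991 counts and Gja5, the connexin of renin cells, 432 to 1687. Some other abundant transcripts were listed at 0 as well. The adult globin genes Hba-a1 and Hba-a2 held no count in any kidney and Hbb-b1 held 1 in all, although the erythroid gene Alas2 held 1968 to 4934 counts. Of the 50-base windows of Hba-a1 and Hba-a2, 67.5% and 86.9% occur in the other copy, whereas 0 of 1543 windows of Ren1 occur in another gene of GENCODE M21, an annotation with no Ren2 on its chromosomes. How the counting treated reads that match more than 1 gene is not given in the sources used here, and its part in the Ren1 row was not tested. Ren1 is therefore listed at or near 0, as were 21.1% of all symbols with at most 1 count in every kidney, and the row gives no information on renin mRNA. It was not tested, and the remaining 6 members are described below in the order of the pathway.

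Per length, Enpep had the highest mean of the members in all 4 groups and Agtr1b the lowest. In C57BL/6 controls Enpep stood at 46.9 ± 5.62 CPM per kilobase of merged exons (SD, n = 3). Agt at 16.9 ± 2.93, Agtr1a at 14.3 ± 1.59, Ace at 12.2 ± 1.19 and Agtr2 at 10.2 ± 1.39 CPM per kilobase followed, each overlapping the next, and Agtr1b was at 1.29 ± 0.894 CPM per kilobase (SD, n = 3 each). In LIN28B Wt1 kidneys Agtr2 moved to the second place at 13.6 ± 4.41 CPM per kilobase, above Agt, Ace and Agtr1a at 7.3 ± 2.19, 6.45 ± 0.238 and 5.08 ± 2.45, which overlapped in turn. In WT littermates of the let-7 KO the order was Enpep, Agt, Ace, Agtr1a and Agtr2, at 66.7, 31.4, 20.7, 15.4 and 7.14 CPM per kilobase, with overlap only between Agt and Ace. In let-7 KO Enpep at 29.6 to 56.6 and Agt at 17.5 to 32.6 CPM per kilobase overlapped. There Agtr2 at 10 ± 3.22 and Agtr1a at 7.78 ± 2.11 CPM per kilobase overlapped, the reverse order of their means in the WT littermates.

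Agt lies on chromosome 8 from 124556534 to 124569706 on the minus strand. Its level was 34.2, 25.6 and 36 CPM in C57BL/6 control replicates 1 to 3 and 15.1, 17.1 and 9.15 CPM in LIN28B Wt1 replicates 1 to 3. All 3 LIN28B Wt1 kidneys lay below all 3 controls, and the lowest was the kidney of litter 2. The log2 fold change was -1.21 (SE 0.27, adjusted p = 0.0624), or 43.2% of the control level, with -0.89 in litter 1 and -1.97 in litter 2. Agt was at 69.7, 69.2 and 39.4 CPM in WT littermates of the mixed strain and at 43.5, 61.6 and 33.1 CPM in let-7 KO. These groups overlapped, with a log2 fold change of -0.39 (SE 0.29, adjusted p = 0.663). Fat also makes Agt, and the summed fat markers were at 63, 85.4 and 10.7 CPM in C57BL/6 control replicates 1 to 3, while their part in the Agt difference was not tested beyond a covariate. With the summed fat markers as a covariate, chosen after the data were seen, the LIN28B Wt1 log2 fold change was -1.48 (edgeR, unadjusted p = 0.00351, adjusted p = 0.439). Summed liver markers ran from 151 to 208 CPM in C57BL/6 controls and from 83.2 to 236 CPM in LIN28B Wt1. They ran from 10 to 79.1 CPM in WT littermates and from 70.8 to 145 CPM in let-7 KO. The part of liver tissue in the Agt levels was not tested.

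Ace lies on chromosome 11 from 105967945 to 105989964 on the plus strand, and Gm11651, annotated on the other strand within it, held at most 48 counts in any kidney. Ace was at 70.6, 58.1 and 64.8 CPM in C57BL/6 controls and at 33.2, 33.6 and 35.5 CPM in LIN28B Wt1. The LIN28B Wt1 kidneys were close to each other and below all controls. Ace fell to 53% of the control level, a log2 fold change of -0.92 (SE 0.16, adjusted p = 0.0295), with -0.95 in litter 1 and -0.87 in litter 2. The fit with a replicate block for litter gave -0.92 again but an adjusted p of 0.0644, so the call was lost. It was also lost in 5 of the 6 fits that left out 1 kidney, and it was kept without LIN28B Wt1 replicate 3, while the unadjusted p stayed below 0.01 in all 6. In the mixed strain Ace was at 132, 98.6 and 97.3 CPM in WT littermates and at 110, 89 and 98 CPM in let-7 KO. The KO and WT kidneys overlapped, with a log2 fold change of -0.16 (SE 0.19, adjusted p = 0.809). The difference between the LIN28B Wt1 and let-7 KO effects on Ace was -0.78 on the log2 scale (SE 0.23), with an unadjusted p of 0.00409 and an adjusted p of 0.537 in a fit of all 12 kidneys. Ace was the only 1 of 6 members with an unadjusted p below 0.01 for this difference, where 1.55% of 16598 genes were called, and no member passed after adjustment, where 0.00602% of genes were called.

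Enpep lies on chromosome 3 from 129269175 to 129332720 on the minus strand. It was at 243, 227 and 192 CPM in C57BL/6 controls and at 98, 116 and 160 CPM in LIN28B Wt1. The groups did not overlap, but the pair from litter 2, 192 CPM in the control and 160 CPM in LIN28B Wt1, was close. The log2 fold change was -0.82 (SE 0.19, adjusted p = 0.0741), with -1.13 in litter 1 and -0.26 in litter 2. In the mixed strain Enpep was at 367, 246 and 329 CPM in WT littermates and at 266, 139 and 182 CPM in let-7 KO. The highest KO kidney exceeded the lowest WT kidney, and the log2 fold change was -0.69 (SE 0.25, adjusted p = 0.39), with -0.6 in litter 1 and -0.85 in litter 2.

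**Figure D2:**
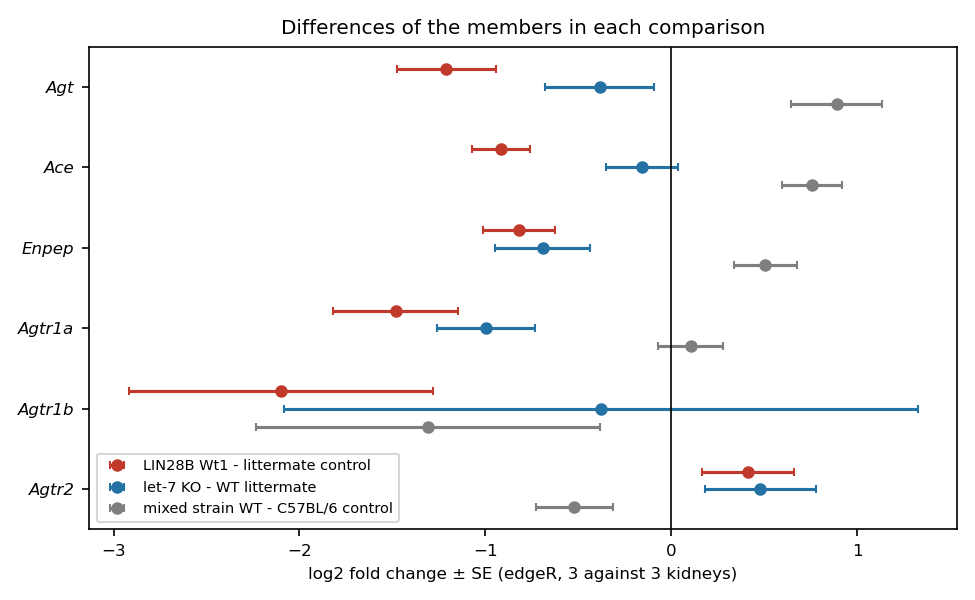
Log2 fold change and SE of 6 members in LIN28B Wt1 against littermate controls (red), let-7 KO against WT littermates (blue) and mixed strain WT against C57BL/6 controls (grey), each from 3 against 3 kidneys. Agt, Ace and Enpep lie below 0 in LIN28B Wt1 and above 0 in the strain comparison, Agtr1a lies at -1.48 and -0.997 in the models and at 0.10 between the control groups, and the error of Agtr1b spans 0 in let-7 KO.

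Agt, Ace and Enpep are all made in proximal tubule cells, and a list of 12 other proximal tubule markers differed between the same groups. Their summed level was 3550 to 3700 CPM in C57BL/6 controls and 1700 to 2070 CPM in LIN28B Wt1, and 11 of the 12 markers were below 0 in log2 fold change. At an unadjusted p below 0.01, 7 of the 12 were lower, where 7.33% of all genes were called and 4.08% were called lower. At an adjusted p below 0.05, 3 of the 12 were lower, where 1.23% of all genes were called. In the let-7 experiment the sums were 4950 to 5670 CPM in WT littermates and 3640 to 4440 CPM in KO. There 4 of 12 markers were lower at an unadjusted p below 0.01, where 2.73% of all genes were called and 1.63% were called lower. Expressed per summed proximal tubule marker, a scale chosen after the data were seen, the log2 difference between LIN28B Wt1 and controls was -0.33 for Agt, 0.00 for Ace and 0.07 for Enpep, in place of -1.24, -0.92 and -0.85 on the plain log2 scale of the CPM. The LIN28B Wt1 and control kidneys then overlapped for all 3 genes (exact permutation test, 2-sided p = 0.3, 1 and 0.9, where the smallest possible p is 0.1). In let-7 KO the same scale gave -0.02 for Agt, 0.21 for Ace and -0.37 for Enpep, all with overlapping groups. The markers differed among themselves in LIN28B Wt1. Slc34a1, the sodium-phosphate cotransporter, and Gatm, a creatine synthesis enzyme, are abundant and had log2 fold changes of -1.20 and -1.52, whereas Lrp2, Cubn, Hnf4a, Ggt1 and Slc13a3 lay between -0.37 and 0.04. With every marker at equal weight, as the mean of the log2 CPM of the 12 markers, the LIN28B Wt1 differences were -0.30 for Agt, 0.03 for Ace and 0.10 for Enpep, again with overlapping groups. Ace is also made by endothelial cells, and the 8 endothelial markers summed to 1060 to 1090 CPM in C57BL/6 controls and 737 to 830 CPM in LIN28B Wt1. Of the 8, 5 were lower at an unadjusted p below 0.01, where 7.33% of all genes were called and 4.08% were called lower. In the let-7 experiment they summed to 924 to 1110 CPM in WT littermates and 961 to 1270 CPM in KO. Nephron progenitor markers moved the other way, from 117 to 119 CPM in C57BL/6 controls to 368 to 433 CPM in LIN28B Wt1. The part of these cell types in these results was not tested beyond this scale.

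**Figure D3:**
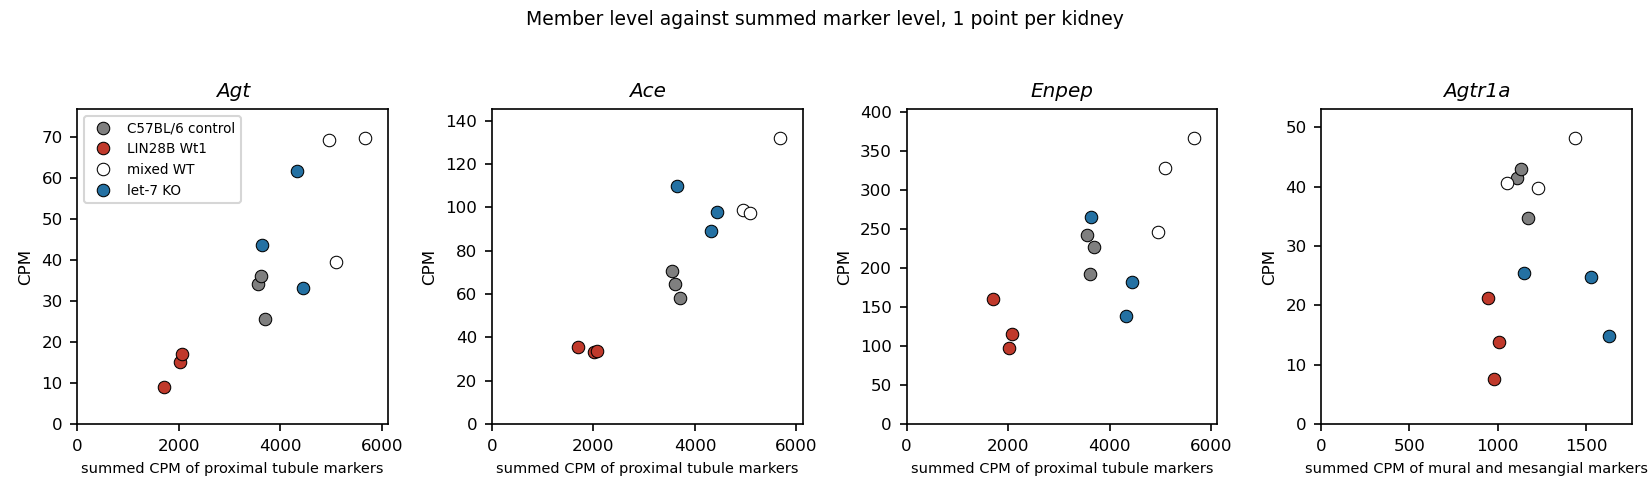
Level of Agt, Ace and Enpep against the summed CPM of 12 proximal tubule markers, and of Agtr1a against the summed CPM of 11 mural and mesangial markers, with 1 point per kidney and both axes starting at 0. The LIN28B Wt1 kidneys sit at the lower left for Agt, Ace and Enpep, whereas for Agtr1a the LIN28B Wt1 kidneys, at marker sums of 946 to 1010 CPM, and the let-7 KO kidneys, at 1150 to 1630 CPM, both lie below the control groups.

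Agtr1a, the main type 1 receptor gene of the mouse kidney, lies on chromosome 13 from 30336441 to 30382867 on the plus strand, with Gm48161, a symbol without a row in the count table, annotated over it on the same strand. It was at 41.5, 43 and 34.7 CPM in C57BL/6 controls and at 7.52, 13.8 and 21.2 CPM in LIN28B Wt1. All LIN28B Wt1 kidneys lay below all controls, with the smallest gap in litter 2. The log2 fold change was -1.48 (SE 0.34, adjusted p = 0.0674), or 35.8% of the control level, with -1.99 in litter 1 and -0.71 in litter 2. In the let-7 experiment it was at 48.2, 39.7 and 40.6 CPM in WT littermates and at 24.7, 14.9 and 25.4 CPM in KO. All 3 KO kidneys lay below all 3 WT kidneys. The log2 fold change was -0.997 (SE 0.26, unadjusted p = 0.00335, adjusted p = 0.362), with -1.15 in litter 1 and -0.68 in litter 2. In let-7 KO it was -0.90 without WT replicate 1 and -0.78 without let-7 KO replicate 2, and in these 2 fits of 6 the unadjusted p was above 0.01. The difference between the effects of the 2 models was -0.51 (SE 0.44, adjusted p = 0.959). The exact permutation test gave a 2-sided p of 0.1 for Agtr1a in each model, the smallest that 3 against 3 kidneys allow.

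The cells that carry Agtr1a are mainly mural and mesangial cells, with some in the tubule. Summed markers of mural and mesangial cells ran from 1110 to 1170 CPM in C57BL/6 controls and from 946 to 1010 CPM in LIN28B Wt1, and from 1050 to 1440 CPM in WT littermates and from 1150 to 1630 CPM in let-7 KO. Per summed mural and mesangial marker, the Agtr1a difference was -1.39 for LIN28B Wt1, as against -1.22 for let-7 KO on the log2 scale, and the groups overlapped in neither model. Acta2 made up 506 to 579 CPM of that sum in C57BL/6 controls, and its log2 fold change in LIN28B Wt1 was -0.22 (SE 0.13). Of the 11 markers, 9 were below 0 in LIN28B Wt1, with a median log2 fold change of -0.49, and 2 were above 0. In let-7 KO 6 were below 0 and 5 above, with a median of -0.01. No scale with these markers at equal weight was computed. The proximal tubule sums were also lower in both models. Per summed proximal tubule marker the Agtr1a difference was -0.69 in LIN28B Wt1, where the groups overlapped, and -0.67 in let-7 KO, where they did not, in place of -1.61 and -1.02 on the plain log2 scale. The part of the tubule in the Agtr1a differences was not tested beyond this scale. Agtr1a shares chromosome 13 with the deleted let-7 genes and lies 18.2 Mb from them. In let-7 KO 5.48% of the 566 tested genes on chromosome 13 had an unadjusted p below 0.01, against 2.66% of tested genes elsewhere. In LIN28B Wt1, where no let-7 gene was deleted, the shares were 8.12% and 7.39%. DNA of another strain linked to the deleted genes and the deletion itself cannot be told apart in the let-7 KO kidneys.

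Agtr1b, the minor type 1 receptor gene, was scarce and variable. It lies on chromosome 3 from 20314473 to 20367177 on the minus strand, and its coding sequence is identical to that of Agtr1a at 90.8% of positions, although only 1.57% of 50-base windows of its exons occur in Agtr1a, so few reads of that length could match both. It was at 1.83, 1.51 and 4.99 CPM in C57BL/6 controls and at 0.588, 0.318 and 1.02 CPM in LIN28B Wt1. The groups did not overlap, and the log2 fold change was -2.10 (SE 0.82, adjusted p = 0.214). It was -1.36 without C57BL/6 control replicate 3, the highest kidney. In the mixed strain it was at 0.613, 0.239 and 2.51 CPM in WT littermates and at 2.41, 0 and 0.139 CPM in let-7 KO. The KO kidneys alone went from 146 counts to 0, and the log2 fold change of -0.38 (SE 1.70, adjusted p = 0.958) does not fix a direction. Such spread was common at this level. Of the 2291 genes with a mean of 0.5 to 3 CPM, 47.3% had 0 counts in at least 1 kidney and 19.8% had 0 and at least 100 counts in kidneys of the same group, against 0.0575% of genes above 10 CPM with a kidney at 0.

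Mature let-7 binds messages through its seed, bases 2 to 8. The 3 deleted miRNAs share that seed, which is shown in capitals (RefSeq, GRCm38.p6), and its matches were searched for in the members.
mmu-let-7a-5p: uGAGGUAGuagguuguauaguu
mmu-let-7f-5p: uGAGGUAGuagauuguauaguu
mmu-let-7d-5p: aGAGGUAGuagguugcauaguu
The seed pairs with CTACCTC, or with TACCTCA when an A follows, and both strings overlap in 6 bases. On the transcribed strand, the longest annotated 3′ UTR of 1 of the 7 members held either string. That member was Agtr1b, with TACCTCA at base 648 of 888 of its 3′ UTR (GENCODE M21, GRCm38, chr3:20314695-20314724, minus strand, match in capitals).
Agtr1b site: gtagcatgcatTACCTCAgtcataaagtca
Among the 14230 genes tested in LIN28B Wt1 that have an annotated 3′ UTR, 16.6% held either string and 10.4% held CTACCTC. By comparison Hmga2 held 4 copies of CTACCTC and 3 of TACCTCA alone. A match is a description of the letters only, and whether let-7 acts on Agtr1b was not tested.

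Agtr2, on chromosome X from 21484544 to 21489164 on the plus strand, was the 1 member whose mean was higher in both models. It was at 31, 31.6 and 39.3 CPM in C57BL/6 controls and at 32.2, 42 and 61.1 CPM in LIN28B Wt1, with overlapping groups. The log2 fold change was 0.41 (SE 0.25, adjusted p = 0.424). In the mixed strain it was at 27.3, 25.3 and 18.7 CPM in WT littermates and at 41.3, 37.7 and 21.2 CPM in let-7 KO. The KO kidney of litter 2 lay among the WT kidneys, and the log2 fold change was 0.48 (SE 0.30, adjusted p = 0.589). Within each litter the KO mean exceeded the WT mean, by 0.59 and 0.18 on the log2 scale. Summed stroma markers, which mark cells where Agtr2 is known to be expressed, ran from 1540 to 1670 CPM in C57BL/6 controls, 1470 to 1530 CPM in LIN28B Wt1, 1110 to 1590 CPM in WT littermates and 1660 to 2000 CPM in let-7 KO. Per summed stroma marker the Agtr2 difference was 0.47 for LIN28B Wt1, as against 0.09 for let-7 KO.

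The control groups differed from each other in several members, so levels cannot be set across the 2 models. Between mixed strain WT and C57BL/6 control kidneys, Agt, Ace and Enpep were higher in the mixed strain, with log2 fold changes of 0.89 (SE 0.24), 0.76 (SE 0.16) and 0.51 (SE 0.17), and Agtr2 was lower at -0.52 (SE 0.21). None of 6 members had an adjusted p below 0.05, where 1.19% of 15850 genes were called, and the adjusted p was 0.149, 0.0698, 0.238 and 0.325 in that order. Agt and Ace, 2 of 6, had an unadjusted p below 0.01, where 4.79% of genes were called, and 4 of 6 members did not overlap between the control groups, where 20% of genes did not. Per summed proximal tubule marker the differences were 0.34 for Agt, 0.22 for Ace and -0.03 for Enpep, with overlapping groups, and Agtr1a, at 0.11 on the plain log2 scale, was at -0.42 without overlap. With the fat markers as a covariate the Agt difference was 0.02, but the fat sums did not overlap between the control groups, so fat and group cannot be told apart in that fit. All 12 proximal tubule markers were above 0 in the same comparison, 8 of them at an unadjusted p below 0.01. Strain and experiment cannot be told apart here. This comparison uses the same control kidneys as the model comparisons.

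A list of 20 other genes of the system, containing alternative angiotensin-processing peptidases and receptors, was described beside the members. Of the 16 tested in LIN28B Wt1, 15 had a log2 fold change below 0, with a median of -0.39 against -0.02 over all genes, and at an unadjusted p below 0.01 there was 1 higher and 2 lower, where 7.33% of all genes were called. The LIN28B Wt1 and control kidneys did not overlap for 7 of the 16, or 43.8%, against 23.8% of all genes. Thop1, a peptidase that converts angiotensin I to angiotensin 1-7, was higher at 75.9 ± 10.9 CPM against 44.7 ± 6.73 CPM in controls (SD, n = 3 each). Its log2 fold change was 0.77 (SE 0.18, adjusted p = 0.0685). Ctsa, a lysosomal carboxypeptidase that can act on angiotensin I, was lower at 288 ± 7.12 CPM against 378 ± 23.2 CPM (SD, n = 3 each), with a log2 fold change of -0.39 (SE 0.12, adjusted p = 0.122). Mas1, the receptor for angiotensin 1-7, had 38, 49 and 21 counts in the controls and 0 in all 3 LIN28B Wt1 kidneys, at least 12.9-fold lower when 3 counts per library are taken as the floor (adjusted p = 0.0736). The median of the list does not depend on which value Mas1 is given below it. In the mixed strain Mas1 had 0, 10 and 17 counts in WT littermates and 0, 83 and 27 counts in let-7 KO, so that kidneys without any count occurred in 3 of the 4 groups. In let-7 KO none of the 16 tested had an unadjusted p below 0.01 in edgeR, where 2.73% of all genes had, and the median log2 fold change was -0.04 against -0.02 over all genes.

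**Figure D4:**
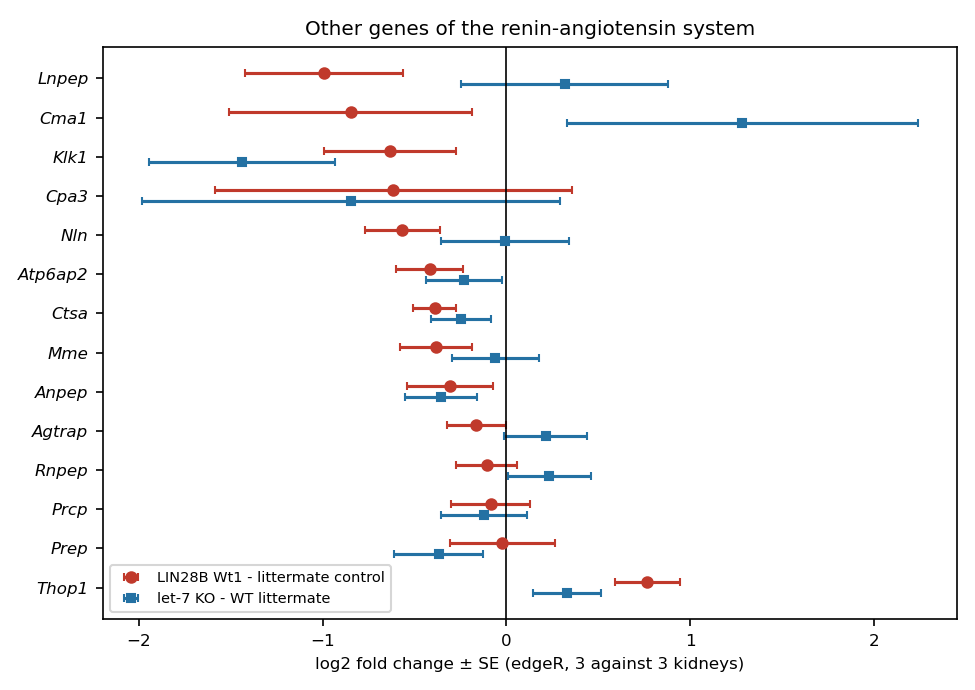
Log2 fold change and SE of 14 other genes of the renin-angiotensin system in LIN28B Wt1 (red circles) and let-7 KO (blue squares), each 3 against 3 kidneys and sorted by the LIN28B Wt1 value. Mas1, whose 3 LIN28B Wt1 kidneys held 0 counts, is not drawn. Thop1 lies above 0 in both models and the other 13 genes drawn lie below 0 in LIN28B Wt1.

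Of 19 genes that control renin cells, 1 had an unadjusted p below 0.01 in LIN28B Wt1, where 7.33% of all genes had, and 1 in let-7 KO, where 2.73% had. The LIN28B Wt1 and control kidneys did not overlap for 6 of the 19, or 31.6%, 3 higher and 3 lower, against 23.8% of all genes. The gene called was Vdr in both models. Vdr, the vitamin D receptor and a known repressor of renin transcription, fell in LIN28B Wt1 from 59.2 ± 7.55 to 29.2 ± 3.17 CPM (SD, n = 3 each), a log2 fold change of -1.02 (SE 0.18, adjusted p = 0.0305). In let-7 KO Vdr was at 46.5 ± 10.4 CPM against 79.7 ± 15.6 CPM in WT littermates (SD, n = 3 each), with a log2 fold change of -0.79 (SE 0.24, adjusted p = 0.362) and no overlap. The list's median was -0.13 for LIN28B Wt1, as against -0.08 for let-7 KO, with -0.02 over all genes in each. Vdr is also expressed in tubule cells, whose markers were lower in the same kidneys. The part of tubule cell content in the Vdr differences was not tested. Akr1b7 was at 29.8 ± 3.7 CPM in C57BL/6 controls and 30.3 ± 5.01 CPM in LIN28B Wt1 (SD, n = 3 each), a log2 fold change of 0.03 (SE 0.20).

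A list of 7 genes was set for the macula densa, the tubule cells that signal to renin cells. Not all 7 are particular to those cells. All 7 had log2 fold changes below 0 in LIN28B Wt1, with a median of -0.96 against -0.02 over all genes. Of the 7, 1 gene, Slc12a1, had an unadjusted p below 0.01, where 7.33% of all genes had. The median is the value of Ptgs2 (SE 0.97), a gene at 0.688 to 4.39 CPM in controls and 0.327 to 2.55 CPM in LIN28B Wt1. The LIN28B Wt1 and control kidneys did not overlap for 1 of the 7, or 14.3%, against 23.8% of all genes. Slc12a1, the NaK2Cl cotransporter of the thick ascending limb, was at 239 ± 32 CPM against 471 ± 154 CPM in controls (SD, n = 3 each), with a log2 fold change of -0.97 (SE 0.22, adjusted p = 0.0674). At an unadjusted p below 0.01, 1 of the 7 was called in let-7 KO, where 2.73% of all genes were. That gene was Pappa2, a protease of IGF-binding proteins made in the macula densa region. Its level in let-7 KO was 1.82, 0.205 and 1.06 CPM against 4.57, 10.9 and 14.1 CPM in WT littermates. The groups did not overlap, and the log2 fold change was -3.26 (SE 0.79, adjusted p = 0.358). Pappa2 in LIN28B Wt1 overlapped its controls, with a log2 fold change of -1.06 (SE 0.57, adjusted p = 0.377).

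Of 16 genes through which type 1 receptors signal, 1 had an unadjusted p below 0.01 in each model, against 7.33% of all genes in LIN28B Wt1, or 2.73% for let-7 KO. Arrb1, the β-arrestin that desensitises the receptor, was at 15.8 ± 3.78 CPM in LIN28B Wt1 against 28 ± 3.54 CPM in controls (SD, n = 3 each), a log2 fold change of -0.83 (SE 0.23, adjusted p = 0.111). Gna12, a G protein α subunit, was at 77.2 ± 19.1 CPM in let-7 KO against 126 ± 7.33 CPM in WT littermates (SD, n = 3 each), a log2 fold change of -0.72 (SE 0.21, adjusted p = 0.362). The medians of the list were -0.22 for LIN28B Wt1, as against -0.03 for let-7 KO, with -0.02 over all genes in each. Groups did not overlap for 37.5% of the list in LIN28B Wt1, against 23.8% of all genes, and 12.5% in let-7 KO, against 16.7%.

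Downstream of aldosterone, the hormone that angiotensin II releases from the adrenal, 2 of 10 genes fell in LIN28B Wt1 at an adjusted p below 0.05, where 1.23% of all genes were called. Slc12a3, the thiazide-sensitive cotransporter of the distal convoluted tubule, fell from 88.3 ± 10.8 to 22.8 ± 0.5 CPM (SD, n = 3 each), a log2 fold change of -1.95 (SE 0.16, adjusted p = 0.000938). Sgk1, the kinase that aldosterone induces to keep sodium channels at the membrane, fell from 205 ± 16.4 to 122 ± 16.8 CPM (SD, n = 3 each), a log2 fold change of -0.74 (SE 0.15, adjusted p = 0.0496). Scnn1a, a subunit of the epithelial sodium channel, had a log2 fold change of -0.93 (SE 0.23, adjusted p = 0.0869). At an unadjusted p below 0.01, 1 of the 10 was called in let-7 KO, where 2.73% of all genes were. That gene was Hsd11b2, the enzyme that keeps glucocorticoids off the mineralocorticoid receptor. Its level was 50.5 ± 13.3 CPM in KO against 94.1 ± 20.9 CPM in WT littermates (SD, n = 3 each), a log2 fold change of -0.91 (SE 0.25, edgeR adjusted p = 0.362). The median of the list was -0.43 for LIN28B Wt1, as against -0.42 for let-7 KO, with -0.02 over all genes in each. Of the 10 genes, 9 and 8 were below 0. Groups did not overlap for 50% of the 10 in LIN28B Wt1, against 23.8% of all genes, and 40% in let-7 KO, against 16.7%. Tsc22d3 was at -0.23 (SE 0.14) in LIN28B Wt1 and 0.29 (SE 0.17) in let-7 KO. Fkbp5 was at 0.05 (SE 0.20) in LIN28B Wt1 and 0.00 (SE 0.24) in let-7 KO. The part of tubule cell content in these differences was not tested.

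The genes with the pattern most like each member were described by Pearson's r of log2 CPM over the 12 kidneys, among 11821 genes. These kidneys differ in strain and group, so r includes those differences. Ace was most like Acss2, Cryz and Aldh4a1, with r of 0.977, 0.973 and 0.972, and Enpep most like Leprel1, Lactb2 and Npnt, with r of 0.975, 0.969 and 0.967. Agt was most like Slc23a1, Car2 and Cux1 (r of 0.958, 0.957 and 0.957), and Agtr1a most like Fa2h, Cat and Sema4a (r of 0.953, 0.941 and 0.938). Agt and Ace had an r of 0.902 over the 12 kidneys, but 0.883 within the LIN28B experiment and 0.285 within the let-7 experiment. Agtr1a and Enpep had an r of 0.901, with 0.984 and 0.895 within the experiments. Agtr2 had lower values, with r of 0.874, 0.872 and 0.861 for Sept9, Stra6 and Cnbp, as had Agtr1b with 0.902, 0.897 and 0.891 for Tspyl5, Sp1 and B3galnt2. Within the let-7 experiment alone, 6 kidneys, the r of Agt with Cux1 was 0.663 and that of Ace with Cryz 0.661.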

How the data were processed

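RNA of each P3 kidney was extracted with Trizol, treated with DNase and made into libraries with the SMARTer Ultra Low RNA kit, which does not mark strand. The deposited values are whole-number counts of reads per gene symbol, made by the authors; the processing notes name cutadapt, TopHat2 2.0.9, Bowtie2, SAMtools 0.1.19, HTSeq and mm10, while the annotation and the HTSeq mode are not given in the sources used here. The 7 members, the gene lists and the rules were chosen with earlier results of these data known. Groups, strain and litter came from the sample labels. Each model was fitted alone, 3 against 3 kidneys, across all genes in edgeR 4.0.16 (R 4.3.3) with filterByExpr (minimum count 10, minimum total count 15), TMM scaling, the quasi-likelihood test and Benjamini-Hochberg adjustment. The difference between models was an interaction in 1 fit of 12 kidneys. CPM values use TMM-scaled library sizes, except those of the floor, and log2 CPM used a prior count of 2. The plain and per-marker log2 scales and the log2 fold changes of single litters used no prior count. The litter numbers of the labels pair kidneys, yet deviations from group means correlated by -0.04 within and 0.05 between litters in the LIN28B experiment, and by 0.00 and -0.01 in the let-7 experiment. No 2 kidneys of a group looked like 1 library counted again. The fits of each model and of the control groups, at the main settings, were tested on simulated data. The interaction fit and the alternatives were not. From each list, genes at an adjusted p below 0.05 in either model are named, otherwise up to 4 with the largest change at an unadjusted p below 0.01. Scnn1a, Akr1b7, Gja5, Ren2, Kiss1, Acta2, Ptgs2, Tsc22d3, Fkbp5 and single proximal tubule markers were named after their values were seen. Positions and 3′ UTRs are from GENCODE M21 on GRCm38. Alternatives were DESeq2 1.42.0, other scalings, other filters, a litter block, 1 fit of all kidneys, a Y-linked covariate and leaving out each kidney. One gene of the lists is not reported here. Intervals on a count of 0 cover counting error only.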

Additional observations from a re-analysis of the deposited data

How the results depend on the processing

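Counts of genes called moved most often. In LIN28B Wt1 the members at an adjusted p below 0.05 numbered 1, but 4 with DESeq2 and 4 with at least 1 CPM in every kidney, 2 with 1 fit of all 12 kidneys and 2 with the Y-linked covariate, and 0 with litter as a replicate block. Over all genes these calls numbered 194, against 1373 with DESeq2 (1866 in place of 1158 at an unadjusted p below 0.01), 401 with the 1 CPM filter and 95 with the block. In let-7 KO, where DESeq2 gave no adjusted p for the 3 receptor genes, the members at an unadjusted p below 0.01 numbered 1, and 2 with DESeq2 and 2 with the Y-linked covariate. All-gene calls there were 3, against 215 (919 in place of 423 at the unadjusted threshold) with DESeq2, 5 with the 1 CPM filter, 0 with the block and 5 (687) with 1 fit. Between controls the members called were 0, against 2 with DESeq2, 1 with the 1 CPM filter and 1 with 1 fit, and all genes were 188, against 749 (1234 in place of 759), 104 with 1 fit and 86 with the Y-linked covariate. For the difference between models all genes were 1, against 105 (478 in place of 257) with DESeq2, 3 without the filter, 3 with the 1 CPM filter, 3 with the Y-linked covariate and 0 with the block. Among members the block changed the call of Ace in LIN28B Wt1 and no other; it turned Agtr1b in let-7 KO to 0.10. The cause of these moves was not tested.

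Leaving out 1 kidney gave 0 to 4 members at an adjusted p below 0.05 in LIN28B Wt1 (3 to 4 at the unadjusted threshold) and 21 to 2074 genes (515 to 2509). The highest values came without LIN28B Wt1 replicate 3, the litter 2 kidney, where the adjusted p was 0.0232 for Agt, 0.00436 for Agtr1a and 0.00326 for Enpep. In let-7 KO it gave 0 to 2 members at the unadjusted threshold, 0 to 5 genes after adjustment and 162 to 1296 before. Between controls it gave 0 to 2 members (1 to 2) and 36 to 308 genes (454 to 1130), and for the difference between models 0 to 1 members at the unadjusted threshold and 1 to 6 genes (165 to 461). Values near 0 changed sign when 1 kidney was left out, Ace in let-7 KO from -0.26 to 0.002 and Agtr1b in let-7 KO from -4.04 to 1.003. The differences between models did so for Agtr1b from -3.11 to 1.93, for Agtr2 from -0.37 to 0.11 and for Enpep from -0.36 to 0.14. Per proximal tubule marker, added after the data were seen, Enpep turned to 0.069 in LIN28B Wt1 and -0.032 between controls. With the markers at equal weight Enpep turned to 0.097 and -0.178, and Ace to 0.027 in LIN28B Wt1. Agtr1a in let-7 KO kept an unadjusted p below 0.01 in all 9 other settings and in 4 of 6 fits without 1 kidney. At these depths Agtr1b and Mas1 rest on at most 262 and 83 counts per kidney. The alternatives were computed for the members and the all-gene counts, not for the genes of the other lists.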
